A study of Mus musculus with 8 samples.

Results

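Splicing was compared between spermatocytes, the male germ cells in meiosis, and round spermatids, the haploid cells that follow them, in the libraries taken as wild type: 2 of spermatocytes and 2 of round spermatids, 4 of the 8 libraries of the series. The series set Larp7 knock-out against wild-type adult C57BL/6 mice. Cells were sorted by FACS after Hoechst staining, and polyadenylated RNA was sequenced. The design text calls the knock-out conditional and the other animals controls; no source used here names the Cre driver. Table headers number the sample groups and name no genotype. The libraries used here are those of the second sample group of each stage, chosen because an exon of Larp7 (mm10 chromosome 3, 127544154 to 127544278) was included at 100% in all 4 of them, with 0 reads joining its neighbours. In the first sample groups, taken as knock-out, its inclusion lay between 0.279% and 2.4%. Larp7 binds the 7SK noncoding RNA and is also needed for modified nucleotides of U6, a small RNA of the spliceosome.

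Alternative splicing joins the exons of a gene in different ways. A cassette exon is kept or skipped, an intron can stay in the RNA, a splice site can move along an exon, and of a mutually exclusive pair 1 exon is used. The testis is known for a large number of such forms, and round spermatids are the stage in which the acrosome and the flagellum begin to be built while the meiotic programme ends. Transcription stops later in spermatid life, so that many RNAs made in round spermatids are stored before they are translated. SR proteins and hnRNP proteins bind exons and introns and shift their use, and genes of both families control their own levels through such events.

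Of 36161 events found in the tables of both stages, 31433 in 8019 genes had enough reads to be tested, and 1500 of them (4.77%) in 1041 genes (13.0% of genes) were called, at an adjusted p below 0.05 in limma. Inclusion was higher in round spermatids in 644 called events and lower in 856. A difference of at least 10 percentage points between stage means was seen in 818, and in 773 of those the levels of the 2 libraries of 1 stage did not overlap those of the other. Levels failed to overlap in 40.7% of all tested events. Most events named below were picked among called events without overlap, so the lack of overlap in them follows from that choice. The call rested on all 4 libraries. With any of them left out, limma called 0 events on the 1 residual degree of freedom and a quasi-binomial test also called 0, while 3805 to 4940 events had an unadjusted p under 0.05. Direction was kept in 1450 to 1473 of the 1469 to 1483 called events that could then be tested.

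The sharpest split between directions was in retained introns. Of 2228 tested introns 401 (18.0%) were called, 367 of them lower in round spermatids (16.5%) and 34 higher (1.53%). Of cassette exons 842 of 21643 were called (3.89%), 505 higher (2.33%) and 337 lower (1.56%). That split rests on the first round spermatid library: without it, in a fit of all 8 libraries, 226 exons were higher and 242 lower. Mutually exclusive pairs were called in 120 of 3650 cases (3.29%), alternative 3 prime splice sites in 65 of 2413 (2.69%) and alternative 5 prime splice sites in 72 of 1499 (4.8%). Event types differ in reads and in level, and the difference in called share between them was not tested.

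**Figure D1:**
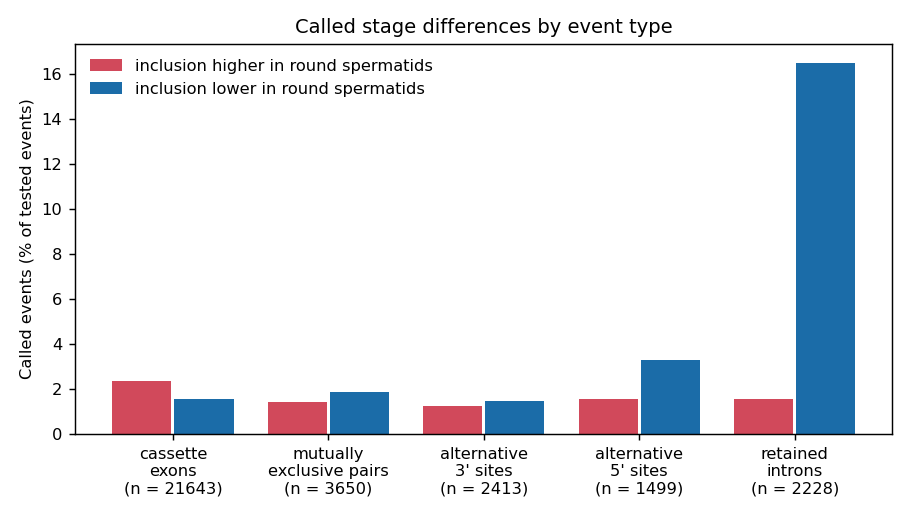
Bars give the percent of tested events of each type (n below each pair) that were called higher or lower in round spermatids by limma. Introns lower in round spermatids, at 16.5%, stand far above every other bar, and cassette exons have more calls higher (2.33%) than lower (1.56%), a split that turns in a fit of 8 libraries without the first of round spermatids (226 and 242).

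Mean retention over the tested introns was 28.7% and 28.8% in the spermatocyte libraries and 25.1% and 24.9% in the round spermatid libraries. The median intron stood at 13.1% and 13.2% against 8.99% and 9.06%. The 2 libraries of a stage lay close together by either measure, and the stages did not overlap. With 2 libraries against 2, the smallest two-sided p an exact permutation test can give is 0.333, so no test was made of these means. Mean inclusion of cassette exons was 82.8% and 82.6% against 83.0% and 82.8%, so that the stages differed by 0.212 points and did not overlap by a margin smaller than the gap between libraries of a stage.

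Introns called lower had medians of 16.9% and 15.8% in spermatocytes and 4.83% and 4.75% in round spermatids. Those called higher had medians of 14.5% and 19.9% against 43.3% and 42.7%. Calls lower outnumbered calls higher at each length and at each level. Of introns up to 200 nt, 116 were lower and 6 higher of 899 tested. Of those over 200 and under 1000 nt it was 148 and 16 of 906, and of those of 1000 nt or more 103 and 12 of 423. The called share was 13.6%, 18.1% and 27.2% in these classes, whose median reads per event and library were 189, 205 and 284. The median difference over all introns of these classes was -2.53, -1.7 and -1.26 points, so it shrank in size as the called share rose. Over called introns it was -12.4, -7.93 and -5.65 points. Introns retained at 50% or more on average had 43 lower and 11 higher of 473. On the X chromosome limma called 0 of 42 tested introns, as did the quasi-binomial test with 0, and 5 were at an unadjusted p under 0.05; the median intron there had 20.4 reads. On autosomes 401 of 2186 were called, with a median of 218 reads. The median difference was 2.72 points on the X chromosome and -2.03 points on autosomes. Of the introns, 35.7% and 70.1% had a difference below 0. Whether X and autosomes differ was not tested.

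**Figure D2:**
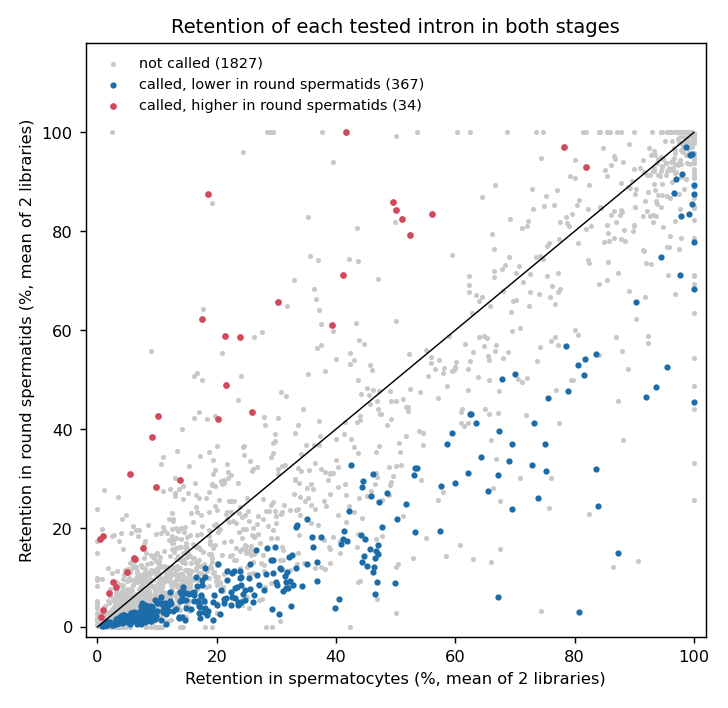
Each point is 1 tested intron, with its mean retention in the 2 spermatocyte libraries on the x axis and in the 2 round spermatid libraries on the y axis, both in percent; the line marks equal retention. The 367 introns called lower in round spermatids lie under the line, 201 of them under 20% in all 4 libraries, and the 34 called higher are scattered above it.

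The largest loss of retention was in Adcy3, an adenylyl cyclase that makes cyclic AMP. Its 590-nt intron (chromosome 12, 4210892 to 4211481) was retained at 82.7% and 78.8% in spermatocytes and at 3.25% and 2.90% in round spermatids. The levels were far apart, with a log2 odds difference of -6.90 (SE 0.75, adjusted p = 2.97e-05). Reads of the gene, counted over its most covered event scaled to the event reads of the library (CPM), were 22.1 and 13.4 in spermatocytes and 2.69 and 3.03 in round spermatids. For Adcy3 that event is this intron itself, with reads of both forms added without dividing by form length. The retained form is longer, so this fall in reads is not a measure apart from the loss of retention. An 86-nt intron of Ydjc (chromosome 16, 17147147 to 17147232) went from 89.4% and 85.4% to 14.0% and 15.96% (log2 odds difference -5.22, SE 0.40, adjusted p = 1.09e-06). The reads of Ydjc were 6.18 and 6.61 against 64.7 and 48.5 CPM, but this rests on which event is the most covered: with either round spermatid library left out the log2 difference was -0.33 or -0.35 in place of 3.04. Retention was high in both spermatocyte libraries and low in both round spermatid libraries of each gene.

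A 1921-nt intron of Nat8f4 (chromosome 6, 85899271 to 85901191) was at 100% in both spermatocyte libraries and at 49.9% and 41.1% in round spermatids (adjusted p = 0.0485). In Rtel1, a helicase that guards telomeres, an 885-nt intron (chromosome 2, 181354443 to 181355327) was at 70.4% and 77.5% against 27.4% and 24.9% (adjusted p = 0.000767). In both genes the stages did not overlap. Exosc2, a subunit of the RNA exosome that degrades RNA from its 3 prime end, showed the largest gain among introns. Its 763-nt intron (chromosome 2, 31675905 to 31676667) rose from 14.4% and 22.6% to 89.0% and 86.1% (log2 odds difference 4.86, SE 0.80, adjusted p = 0.00129).

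Several genes had more than 1 called intron. Of 320 genes with a called intron, 55 had 2 or more. In 51 of these every called intron was lower in round spermatids, in 2 (Ing4 and Surf2) every called intron was higher, and in 2 (Ap4m1 and Bap1) the directions differed. Introns of a gene share its RNA, and several overlap each other, so they are not independent. Since 367 of all 401 called introns were lower, most such genes would hold lower introns alone without any link between introns of a gene. The genes with the most called introns were Gas5 with 8 of 11, Catsperg1 with 7 of 8, and Catsperg2, Gba2 and Skiv2l with 4 of 5 each, besides Trmt1 with 4 of 7. All of these calls were lower in round spermatids.

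**Figure D3:**
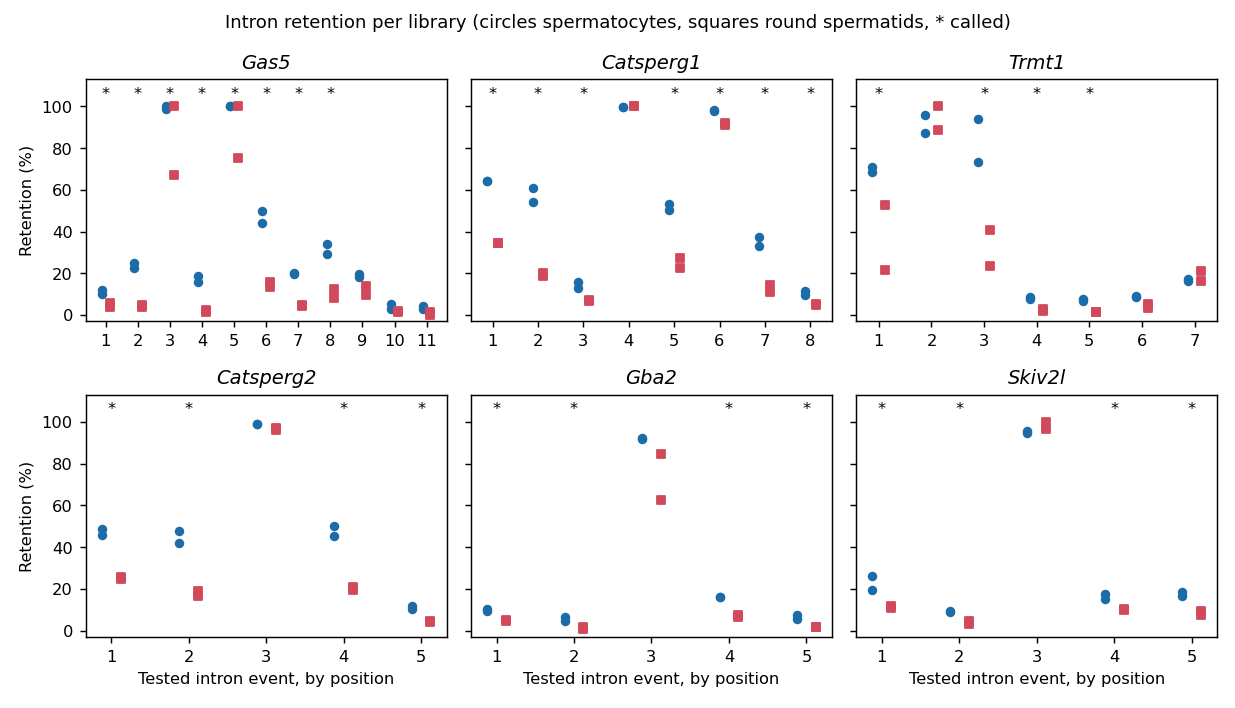
Retention in percent is shown for every tested intron event of the 6 genes with 4 or more called introns, in order along the chromosome; circles are the 2 spermatocyte libraries, squares the 2 round spermatid libraries, and asterisks mark calls. Squares lie under circles at nearly every asterisk; the exceptions are the third and the fifth event of Gas5, where 1 round spermatid library is at 100%.

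Catsperg1 and Catsperg2 are neighbouring, similar genes for a subunit of CatSper, the calcium channel of the sperm tail, and reads may be split between the copies. A 185-nt intron of Catsperg1 (chromosome 7, 29185252 to 29185436) was retained at 54.3% and 60.7% in spermatocytes and at 18.8% and 19.96% in round spermatids (log2 odds difference -2.50, SE 0.21, adjusted p = 2.71e-06). A 103-nt intron of Catsperg2 (chromosome 7, 29705190 to 29705292) was at 45.4% and 50.1% against 19.7% and 20.9% (log2 odds difference -1.84, SE 0.27, adjusted p = 0.000548). The levels of the stages stood well apart in both. Reads of these genes fell as well, from 769 and 901 to 173 and 206 CPM for Catsperg1 and from 567 and 624 to 214 and 187 CPM for Catsperg2.

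Gas5 is a noncoding RNA whose introns carry snoRNAs, the small RNAs that guide modification of ribosomal RNA. Its 271-nt intron (chromosome 1, 161036853 to 161037123) was retained at 49.9% and 44.3% in spermatocytes and at 15.9% and 13.4% in round spermatids (adjusted p = 0.000509). A 304-nt intron (161036245 to 161036548) was at 18.8% and 15.7% against 2.26% and 1.48% (adjusted p = 4.18e-05). Neither overlapped between stages. For the 805-nt and 575-nt events of Gas5, each of which spans more than 1 intron, retention was at 100% in 1 round spermatid library and at 67.0% and 75.1% in the other, and the quasi-binomial test did not call them. Reads of Gas5 went from 100.5 and 103.5 to 59.4 and 61.1 CPM. In the RefSeq table of GRCm38.p6, the assembly of mm10, 38 tested introns in 20 genes hold a snoRNA on either strand; 6 of them were called, all lower and all in Gas5, which has 8 of the 38. Of all introns 18.0% were called, so the count over the 38 is near that share.

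Gba2 encodes a glucosylceramidase outside the lysosome, Skiv2l a helicase that feeds RNA to the exosome, and Trmt1 an enzyme that methylates transfer RNA. The differences of their called introns were small in points for Gba2, for example from 15.9% and 15.9% to 6.50% and 7.36% in a 168-nt intron (adjusted p = 0.0126). In Skiv2l a 147-nt intron went from 18.4% and 16.7% to 9.24% and 7.53% (adjusted p = 0.00522). The 4 called events of Trmt1 include 3 that share a 5 prime splice site. The widest of them in points, of 229 nt (chromosome 8, 84690573 to 84690801), was at 94.1% and 73.2% against 40.5% and 23.5% (adjusted p = 0.0153). The libraries of each stage lay far apart, and the quasi-binomial test did not call it.

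A microRNA hairpin lies inside 7 of the tested introns on the same strand, and 2 of these introns were called, both lower in round spermatids. Of all tested introns 18.0% were called and 16.5% were called lower, and 7 introns are too few to tell their share from these. In Srrt, which joins the nuclear cap to microRNA processing, the 151-nt intron (chromosome 5, 137296624 to 137296774, minus strand) holds the 65-nt hairpin Mir7036, and the 3 prime end of the hairpin is the 3 prime end of the intron. It was retained at 18.5% and 17.2% in spermatocytes and at 5.56% and 5.07% in round spermatids (log2 odds difference -1.95, SE 0.43, adjusted p = 0.0121). In Rab4b, a GTPase of endosome recycling, the 264-nt intron (chromosome 7, 27175894 to 27176157, minus strand) holds the 88-nt hairpin Mir3101 and was at 5.82% and 5.15% against 0.766% and 0.931% (log2 odds difference -2.69, SE 0.64, adjusted p = 0.0195). The libraries of the stages did not overlap in either intron, and the microRNAs themselves were not measured. The 2 hairpins differ, and their mature microRNAs have 4 different seeds. These microRNAs are shown 5 prime to 3 prime from RefSeq (GRCm38.p6), with the seed (bases 2 to 8) in capitals.
mmu-miR-7036a-5p: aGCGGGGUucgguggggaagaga
mmu-miR-7036a-3p: cCGUCCUCauccgcuccucccag
mmu-miR-3101-5p: gGUACCAUugacuaaagcuag
mmu-miR-3101-3p: uAGCUUUGguggauggucuuu

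Among cassette exons the calls split into 505 exons gained and 337 lost in round spermatids, on 815 distinct exons. Exons called higher had medians of 76.9% and 77.6% in spermatocytes and of 94.3% in both round spermatid libraries. Exons called lower had medians of 91.2% and 88.5% against 62.2% and 62.0%. An exon passed from under 50% in both spermatocyte libraries to over 50% in both round spermatid libraries in 60 called cases, and the reverse in 38. Over all tested exons these counts were 166 and 119.

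The clearest gain was in Kif2c, a kinesin that takes microtubules apart at the spindle. Its 188-nt exon (chromosome 4, 117178401 to 117178588) was included at 4.75% and 6.04% in spermatocytes and at 72.2% and 64.9% in round spermatids (log2 odds difference 5.23, SE 0.33, adjusted p = 2.81e-07). A 209-nt exon of Rangap1, which sets the direction of nuclear transport, rose from 37.8% and 34.1% to 98.6% and 98.8% (chromosome 15, 81726074 to 81726282; log2 odds difference 6.88, SE 0.47, adjusted p = 2.81e-07). In both genes the libraries of a stage lay close together and the stages stood far apart. Reads of Rangap1 rose too, from 38.6 and 38.6 to 307 and 186 CPM.

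Eef1d encodes a subunit of translation elongation factor 1, and a long form of it is known from brain and testis. A 1140-nt exon of Eef1d (chromosome 15, 75902679 to 75903818) was included at 22.2% and 41.9% in spermatocytes and at 93.7% and 95.4% in round spermatids (log2 odds difference 5.34, SE 0.35, adjusted p = 2.81e-07). The spermatocyte libraries differed from each other and still lay far under both round spermatid libraries. Reads of the gene rose from 145 and 166 to 2041 and 1751 CPM (log2 difference 3.61, SE 0.15, adjusted p = 3.23e-09). These are the reads of the same exon event, with both forms added without dividing by form length. The form with the exon is longer, so the rise is not a measure apart from inclusion.

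Pkm encodes pyruvate kinase, the last enzyme of glycolysis. Its 117-nt exon (chromosome 9, 59663040 to 59663156) rose from 24.9% and 31.1% to 91.7% and 90.4% (log2 odds difference 4.61, SE 0.32, adjusted p = 2.81e-07), with reads of the gene going from 14.6 and 15.7 to 145 and 90.5 CPM. The mutually exclusive exons of Pkm, which tell its M1 and M2 forms apart, were looked up after this value was seen. Use of the upstream exon, that of the M1 form, was 68.5% and 71.5% in spermatocytes and 92.0% and 89.0% in round spermatids (log2 odds difference 2.05, SE 0.33, adjusted p = 0.00107). Both events separated the stages with no overlap.

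Large gains were also seen in genes of transcription and in a noncoding RNA. Gabpb1, a partner of the transcription factor GABP, had a 98-nt exon at 14.1% and 9.88% against 82.5% and 65.6% (adjusted p = 0.00132). Gtf2i, a general transcription factor, had a 196-nt exon at 27.3% and 30.9% against 88.8% and 94.4% (adjusted p = 5.62e-05). In Sox2ot, a noncoding RNA that overlaps Sox2, a 185-nt exon was at 9.02% and 6.20% against 64.1% and 82.4% (adjusted p = 0.00468). All 3 exons were low in each spermatocyte library and high in each round spermatid library.

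Of the 9 leading cassette exons reported here, 2 were losses. In Baz2a, a subunit of a chromatin remodelling complex that silences ribosomal RNA genes, a 391-nt exon (chromosome 10, 128092460 to 128092850) fell from 76.5% and 88.7% to 13.2% and 23.6% (log2 odds difference -4.44, SE 0.60, adjusted p = 0.000256). In Caps2, a calcium-binding protein, a 155-nt exon (chromosome 10, 112175200 to 112175354) was at 100% in both spermatocyte libraries and at 28.5% and 32.9% in round spermatids (adjusted p = 0.0342). The stages did not overlap in either.

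**Figure D4:**
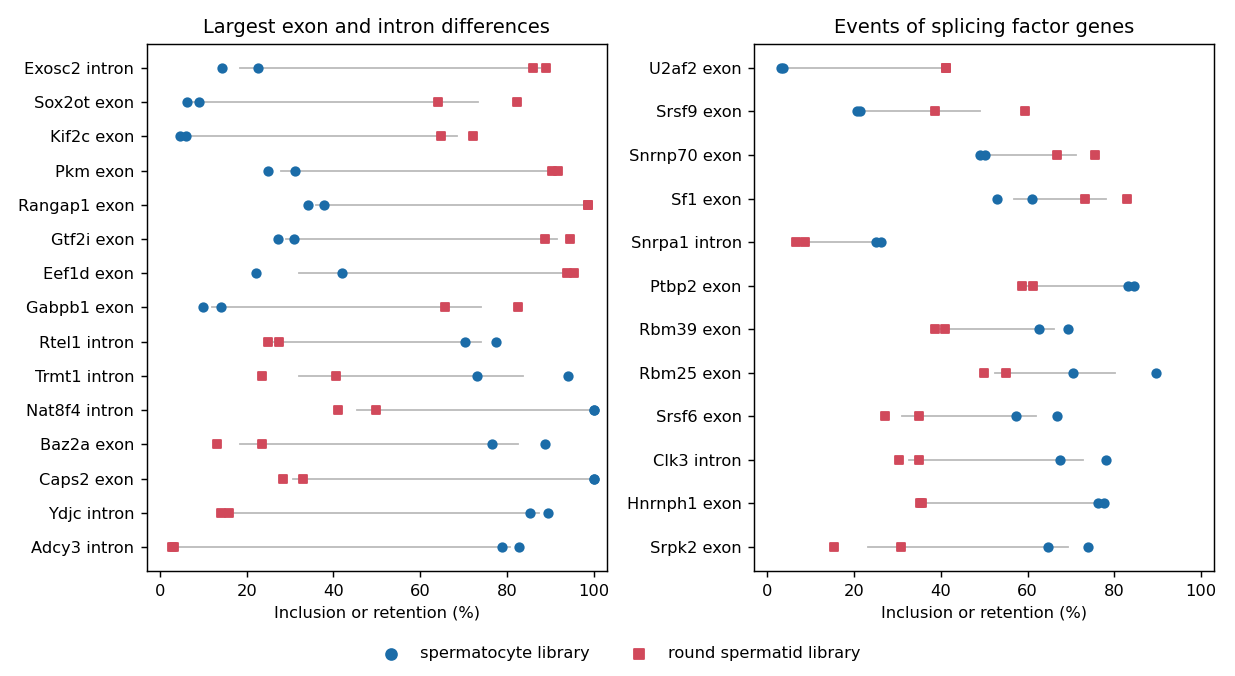
Each row is 1 exon or intron; circles are the 2 spermatocyte libraries, squares the 2 round spermatid libraries, and the line joins the stage means. The left panel holds 9 cassette exons and 6 introns with large called differences, the right panel the events of splicing factor genes. Circles and squares do not overlap in any row because only events without overlap were eligible.

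Exons of at most 27 nt, called microexons, were called in 16 of 374 cases, 4.28% against 3.89% of all cassette exons, with 14 higher in round spermatids and 2 lower. Of the 14, 3 are in the gene BC051142, and 8 of the 16 were not called by the quasi-binomial test. The genes named here were chosen after their values were seen. A 24-nt exon of Clasp1, which stabilises microtubule ends, rose from 56.7% and 58.8% to 87.8% and 89.2% (adjusted p = 0.00284). A 27-nt exon of Kifc3, a kinesin that moves toward microtubule minus ends, rose from 11.2% and 11.1% to 35.3% and 34.7% (adjusted p = 0.00132). Both called losses, in Myo6 (27 nt, from 60.4% and 48.2% to 14.0% and 5.13%, adjusted p = 0.0271) and Ap1g1 (9 nt, from 89.9% and 83.4% to 48.5% and 55.7%, adjusted p = 0.00876), are in genes of vesicle transport. Of these 4 exons the quasi-binomial test did not call that of Myo6.

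Alternative 5 prime sites moved most in Cd247, the zeta chain of the T cell receptor complex, where use of the longer form of a 150-nt stretch fell from 97.3% and 86.5% to 20.8% and 22.9% (adjusted p = 0.00102). In Slc25a3, the phosphate carrier of mitochondria, a 99-nt stretch went from 70.3% and 63.5% to 15.4% and 16.7% (adjusted p = 1.33e-05). In Mtf2, a partner of the polycomb complex PRC2, a 160-nt stretch went from 68.0% and 63.8% to 26.6% and 17.4% (adjusted p = 0.00975), and in Plekhn1 a 2691-nt stretch from 56.8% and 59.5% to 14.4% and 13.0% (adjusted p = 1.05e-05). The shorter form was gained in all 4, which are the largest differences of this type. Of the 72 calls 49 were lower and 23 higher.

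Among alternative 3 prime sites the 4 largest differences also favoured the shorter form. They lay in Fubp1, which binds single-stranded DNA upstream of Myc (2129 nt, from 65.2% and 74.4% to 24.9% and 35.6%, adjusted p = 0.00202), in Pcnp (52 nt, from 70.2% and 65.2% to 33.8% and 33.2%, adjusted p = 0.000425), in Fam63a, a deubiquitinase (311 nt, from 57.2% and 59.1% to 23.5% and 21.9%, adjusted p = 0.00201), and in Rnf212b. No overlap between stages was seen in these genes. Sites 3 nt apart gave 0 calls of 469 in limma; the quasi-binomial count was also 0, and 20 were at an unadjusted p under 0.05. Of sites more than 3 nt apart 65 of 1931 were called, and of those closer than 3 nt 0 of 13, with 4 at an unadjusted p under 0.05 and 0 by the quasi-binomial test.

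For a mutually exclusive pair the level given is the share of the exon that comes first in the transcript. The largest differences lay in Cdhr4, a cadherin-related protein (from 87.3% and 84.6% to 31.0% and 35.9%, adjusted p = 1.43e-05), and in Agbl2, an enzyme that trims glutamate from tubulin (from 78.7% and 78.9% to 31.0% and 29.7%, adjusted p = 3.74e-05). Next came Tcea1, an elongation factor of RNA polymerase II (from 37.9% and 46.5% to 1.41% and 2.40%, adjusted p = 0.000228), and Cacnb1, a calcium channel subunit (from 56.6% and 50.9% to 14.0% and 14.8%, adjusted p = 0.000157). The share of the exon that comes first was lower in both round spermatid libraries in each of the 4; in Tcea1 its partner was the more used exon in spermatocytes already.

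Among SR proteins and their kinases 8 of 21 tested genes had a called event, against 13.0% of all tested genes, and the median absolute difference over their events was 3.21 points, against 1.41 over all events. Among hnRNP proteins and tissue exon regulators it was 12 of 39 genes, with a median of 3.27 points. Calls in Hnrnpl and Hnrnpm were of events at 97.0% or more in every library, and the quasi-binomial test made none of them. Core spliceosome genes stood nearer the background, with 5 of 31 genes and a median of 0.94 points. Introns were called lower in 5 of 14, 4 of 23 and 2 of 12 tested cases, against 16.5% of all introns; the last 2 counts are near that share. Reads of these genes were mostly lower in round spermatids: 17 of 21 SR genes, 31 of 40 hnRNP genes and 26 of 33 spliceosome genes were called lower, and 3, 4 and 2 higher, with median log2 differences of -1.82, -1.23 and -1.34 against -0.41 over all genes.

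Among the kinases of SR proteins, Clk3 kept less of a 2473-nt intron (chromosome 9, 57758351 to 57760823), at 78.1% and 67.5% in spermatocytes and 30.5% and 35.1% in round spermatids (log2 odds difference -2.40, SE 0.33, adjusted p = 0.000288). Introns of Clk1 and Clk2 were also lower, from 24.4% and 26.6% to 9.76% and 15.8% in Clk1 and from 11.4% and 14.8% to 4.03% and 3.10% in a 691-nt intron of Clk2. The 3 CLK kinases named here thus had introns called lower. In Srpk2 a 146-nt exon fell from 74.0% and 64.6% to 30.8% and 15.5% (adjusted p = 0.0315).

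In Srsf6, an SR protein, a 268-nt exon (chromosome 2, 162932815 to 162933082) fell from 57.2% and 66.7% to 27.1% and 35.0% (log2 odds difference -1.86, SE 0.31, adjusted p = 0.00164), and an overlapping 1283-nt intron event from 41.8% and 49.8% to 23.7% and 29.3%. In Srsf9 a 358-nt exon rose from 21.4% and 20.6% to 59.5% and 38.7% (adjusted p = 0.0306). The 2 SR genes moved in opposite directions, each with no overlap between stages.

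Hnrnph1 encodes an hnRNP protein that binds runs of G. Its 139-nt exon (chromosome 11, 50381459 to 50381597) was included at 77.6% and 76.2% in spermatocytes and at 35.2% and 35.6% in round spermatids (log2 odds difference -2.61, SE 0.18, adjusted p = 2.81e-07). In Ptbp2, the form of the polypyrimidine tract-binding protein found in neurons and germ cells, a 34-nt exon (chromosome 3, 119724612 to 119724645) was at 84.5% and 83.1% against 58.8% and 61.2% (adjusted p = 0.00197). Rbm39 (72 nt, from 62.6% and 69.4% to 40.9% and 38.6%, adjusted p = 0.0254) and Rbm25 (64 nt, from 89.7% and 70.4% to 55.1% and 49.8%, adjusted p = 0.0499) lost exons as well. All 4 exons were higher in each spermatocyte library than in any round spermatid library.

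Among core factors the largest difference was in U2af2, the large subunit of the factor that reads the polypyrimidine tract of the 3 prime splice site. Its 64-nt exon (chromosome 7, 5068733 to 5068796) was at 3.10% and 3.57% in spermatocytes and at 41.2% in both round spermatid libraries (log2 odds difference 4.30, SE 0.47, adjusted p = 2.97e-05). In Snrnp70, the U1 snRNP protein, an 80-nt exon rose from 49.0% and 50.2% to 75.4% and 66.8% (adjusted p = 0.00505), while a 1360-nt exon of the same gene fell from 19.4% and 21.2% to 9.57% and 9.44%. Sf1, which reads the branch point, gained a 205-nt exon (from 52.9% and 61.0% to 73.3% and 82.9%, adjusted p = 0.00217), and Snrpa1, a U2 snRNP protein, kept less of a 1063-nt intron (from 26.2% and 25.0% to 8.71% and 6.69%, adjusted p = 0.00145). The 3 exons gained and the intron lost all separated the stages.

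Genes that act on RNA after splicing had called events in 8 of 48 tested genes of decay, m6A and 3 prime end formation, and in 3.64% of their events, under the 4.77% of all events. Besides Exosc2, the deadenylase gene Pan2 gained the longer form at a 104-nt 5 prime site (from 36.9% and 41.3% to 76.1% and 64.6%, adjusted p = 0.0459). Cpsf4, a cleavage and polyadenylation factor, kept less of a 1455-nt intron (from 49.5% and 39.8% to 14.2% and 14.6%, adjusted p = 0.00312). The libraries of the stages did not overlap in either gene.

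Meiotic chromosome and recombination genes were called in 6 of 44 tested genes, a share of 13.6%, near the background of 13.0%. Sycp1, which forms the transverse filaments of the synaptonemal complex, lost a 70-nt exon (chromosome 3, 102923001 to 102923070), from 99.5% and 98.6% to 64.8% and 75.7% (log2 odds difference -5.33, SE 0.60, adjusted p = 4.23e-05). Rnf212b, a factor of meiotic crossing over, used the longer form of a 370-nt stretch at a 3 prime site at 94.3% and 87.8% against 48.2% and 42.3% (adjusted p = 0.0493). In Terb1, which ties telomeres to the nuclear envelope, a 40-nt stretch at a 5 prime site fell from 79.9% and 87.7% to 68.0% and 53.4% (adjusted p = 0.0136), and in Sun1, its envelope partner, a 99-nt exon fell from 92.3% and 96.8% to 82.6% and 73.3% (adjusted p = 0.0186). The more used form lost share in these 4 genes. In the other 2 called genes it gained: Stag3, a meiotic cohesin, had a 201-nt exon at 90.9% and 92.8% against 98.7% and 97.6% (adjusted p = 0.00841), and Ccdc155 a 59-nt exon at 97.2% and 96.2% against 99.3% and 99.5% (adjusted p = 0.042).

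In piRNA and germ granule genes, 6 of 25 were called, against 13.0% of all tested genes. Of their events 6.78% were called, against 4.77% of all events. The exon calls were 10 lower and 2 higher, against 337 lower and 505 higher over all exons. Several of the lower calls share a gene, so they are not independent. Rnf17, a component of germ granules, lost a 164-nt exon (from 93.1% and 91.3% to 77.0% and 76.0%, adjusted p = 0.00125) and had 3 further exon events lower. In Tdrd9, a helicase of the piRNA pathway, a 98-nt exon went from 96.5% and 97.6% to 85.6% and 85.4% (adjusted p = 0.0296). Both calls that were higher were exons of Gtsf1, from 4.53% and 5.37% to 13.4% and 11.9% in the 81-nt exon. Calls in Piwil1, Tdrd1 and Tdrd5 were of exons at or near 100% in every spermatocyte library and in 1 round spermatid library or both, and the quasi-binomial test made none of them.

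Of acrosome and gamete fusion genes 9 of 38 were called, with a median absolute difference of 0.367 points over all their events. Of the events of this list 3.19% were called, under the 4.77% of all events. Izumo4, of the family of the sperm fusion protein Izumo1, lost the longer form at a 78-nt 3 prime site (from 27.1% and 19.0% to 3.63% and 2.94%, adjusted p = 7.51e-05). Adam18, a sperm surface protein, gained the longer form at a 44-nt site (from 72.8% and 76.9% to 87.3% and 87.4%, adjusted p = 0.0028). The libraries of the stages did not overlap in either gene.

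Axoneme and cilium genes were called in 20 of 102, but of their events 3.16% were called, also under the 4.77% of all events. Meig1, needed for the manchette and for spermiogenesis, had a 146-nt exon (chromosome 2, 3413361 to 3413506) in 2 called events that moved in opposite directions. Against 1 pair of flanking exons its inclusion fell from 56.3% and 52.3% to 9.91% and 10.9% (log2 odds difference -3.34, SE 0.29, adjusted p = 3.63e-06). That event had 277 and 285 reads in spermatocytes and 2137 and 2103 in round spermatids. The other event, with 24648 to 28564 reads in each library, put the same exon at 0.771% and 0.728% against 1.35% and 1.39% (adjusted p = 0.00217), so that over most reads of the gene the exon was nearly always skipped in both stages. Ift20, of intraflagellar transport, lost a 229-nt exon (chromosome 11, 78538510 to 78538738), from 48.3% and 42.0% to 10.3% and 8.70% (log2 odds difference -2.97, SE 0.33, adjusted p = 4.09e-05). In Cfap43 a 43-nt exon fell from 41.0% and 36.4% to 10.7% and 8.10% (adjusted p = 0.0387), and in Cfap74 a 289-nt intron from 46.5% and 54.0% to 22.4% and 21.4% (adjusted p = 0.000658). The events of Ift20, Cfap43 and Cfap74 were lower in both round spermatid libraries.

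Flagellum accessory genes were called in 8 of 32, against 13.0% of all tested genes, with 7.04% of events against 4.77% of all events. Akap4 and Cabyr were each called for an exon at 99.3% or more in every library, and the quasi-binomial test called neither. Of the 17 tested introns of this list 11 were lower, against 16.5% of all introns, and all 11 lay in Catsperg1 and Catsperg2. Catsper2, a pore subunit of the same channel, gained a 156-nt exon (chromosome 2, 121406707 to 121406862), from 31.3% and 26.1% to 78.2% and 65.1% (log2 odds difference 2.47, SE 0.55, adjusted p = 0.0139). Catsperd, another subunit, had a 114-nt exon at 80.1% and 79.6% against 71.3% and 66.5% (adjusted p = 0.024). Hk1, whose germ cell form of hexokinase sits on the fibrous sheath, changed the use of a mutually exclusive pair (from 70.8% and 75.5% to 38.7% and 47.5%, adjusted p = 0.000238). Catsper2 and Catsperd thus moved in opposite directions, each with no overlap between stages.

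Manchette, centrosome and nuclear shaping genes were called in 15 of 65, with 5.48% of events, against 4.77% of all events. Cep112 and Cep192 were each called for an exon at 95.3% or more in every library, and the quasi-binomial test called neither. Crem, the transcriptional regulator of haploid genes, is known to change from repressor to activator forms in germ cells. Its 110-nt exon (chromosome 18, 3309646 to 3309755) rose from 18.2% and 25.8% to 71.8% and 65.5% (log2 odds difference 2.90, SE 0.35, adjusted p = 9.34e-05), and a 147-nt exon fell from 96.3% and 94.6% to 76.2% and 76.7%. A 133-nt exon, with too few reads to be among the named events, went from 7.02% and 23.7% to 77.9% and 85.4% (adjusted p = 0.00201). Cep152 (165 nt, from 53.1% and 54.9% to 20.1% and 26.8%, adjusted p = 0.00891) and Cspp1 (153 nt, from 97.1% and 94.7% to 65.4% and 79.9%, adjusted p = 0.000351), both of the centrosome, lost exons, and Kif9, a kinesin of the axoneme, lost the longer form at a 31-nt 5 prime site (from 50.4% and 63.7% to 29.6% and 35.2%, adjusted p = 0.00303).

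Genes of chromatin and haploid transcription were called in 11 of 98, a share of 11.2%, under the 13.0% of all tested genes. Introns were called lower in 8 of 40 tested cases, near the 16.5% of all introns. Hdac5, a histone deacetylase, kept less of an 83-nt intron (chromosome 11, 102195869 to 102195951), from 45.5% and 48.3% to 9.59% and 8.60% (log2 odds difference -3.11, SE 0.45, adjusted p = 0.000476). Introns of L3mbtl1 (from 28.9% and 32.6% to 10.8% and 12.7%, adjusted p = 0.0415) and Brpf1 (from 21.3% and 27.6% to 7.92% and 5.40%, adjusted p = 0.0408) were lower, and Epc2 gained a 192-nt exon (from 48.2% and 48.3% to 66.7% and 69.4%, adjusted p = 0.0487). Trim28, a corepressor, had 3 introns called lower, the highest of them at 7.77% and 8.67% in spermatocytes and at 2.78% and 3.04% in round spermatids. In the first sample groups the intron of L3mbtl1 stood at 36.7% and 28.9% in spermatocytes and at 45.2% and 34.5% in round spermatids, the opposite direction.

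Of the 65 named events 13 were not called by the quasi-binomial test: those of Trmt1, Tdrd9, Catsperd, Srpk2, Rbm25, Rbm39, Terb1, Sun1, Cfap43, Epc2, L3mbtl1, Brpf1 and Pan2. The introns named for Clk1 and for Srsf6 were not called by it either.

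The labelled stages were checked against the reads of marker genes. Of 8277 genes with enough reads, 2329 (28.1%) were called higher and 3837 (46.4%) lower in round spermatids, with a median log2 difference of -0.41. Scaled by median ratios, which brings that median to -0.004, 3016 were higher and 2760 lower, so the split of all genes depends on the scaling. Spermatocyte markers were lower in 17 of 26 measured genes and higher in 4 (Plk1, Rec8, Smc1b and Syce2). Round spermatid markers were higher in 15 of 20 and lower in 1 (Catsperd). All 3 measured elongating spermatid markers were higher. In such bulk libraries fewer cells of a type and less RNA per cell cannot be told apart.

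Piwil1, a piRNA-binding protein, had 1835 and 1418 CPM in spermatocytes and 65.7 and 53.4 CPM in round spermatids (log2 difference -4.76, SE 0.17, adjusted p = 2.92e-09), and Tcfl5 had 962 and 980 against 512 and 529. Akap4, a protein of the fibrous sheath of the sperm tail, had 399 and 482 CPM in spermatocytes and 9322 and 6797 in round spermatids (log2 difference 4.18, SE 0.17, adjusted p = 3.23e-09), and Gapdhs, the sperm form of a glycolytic enzyme, 68.5 and 67.8 against 1235 and 946. These genes marked the labelled stage in every library. Mael and the round spermatid markers with the most reads, Spink2, Spata16 and Zpbp2, were not called. Akap4, Gapdhs and Oaz3 make up the measured list of elongating spermatids, and the part of such cells in the splicing differences was not tested.

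Markers of other cells were low in all 4 libraries. Summed over the measured genes, spermatogonia markers came to 3.42 to 6.12 CPM (3 of 17 genes measured), Sertoli cell markers to 49.3 to 81.1 CPM (4 of 15) and Leydig, peritubular and immune markers to 17.2 to 26.9 CPM (3 of 14). Most of the Sertoli sum was Clu, at 26.9 and 50.7 CPM in spermatocytes and 28.8 and 43.6 in round spermatids. A gene without a matched event could not be measured.

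**Figure D5:**
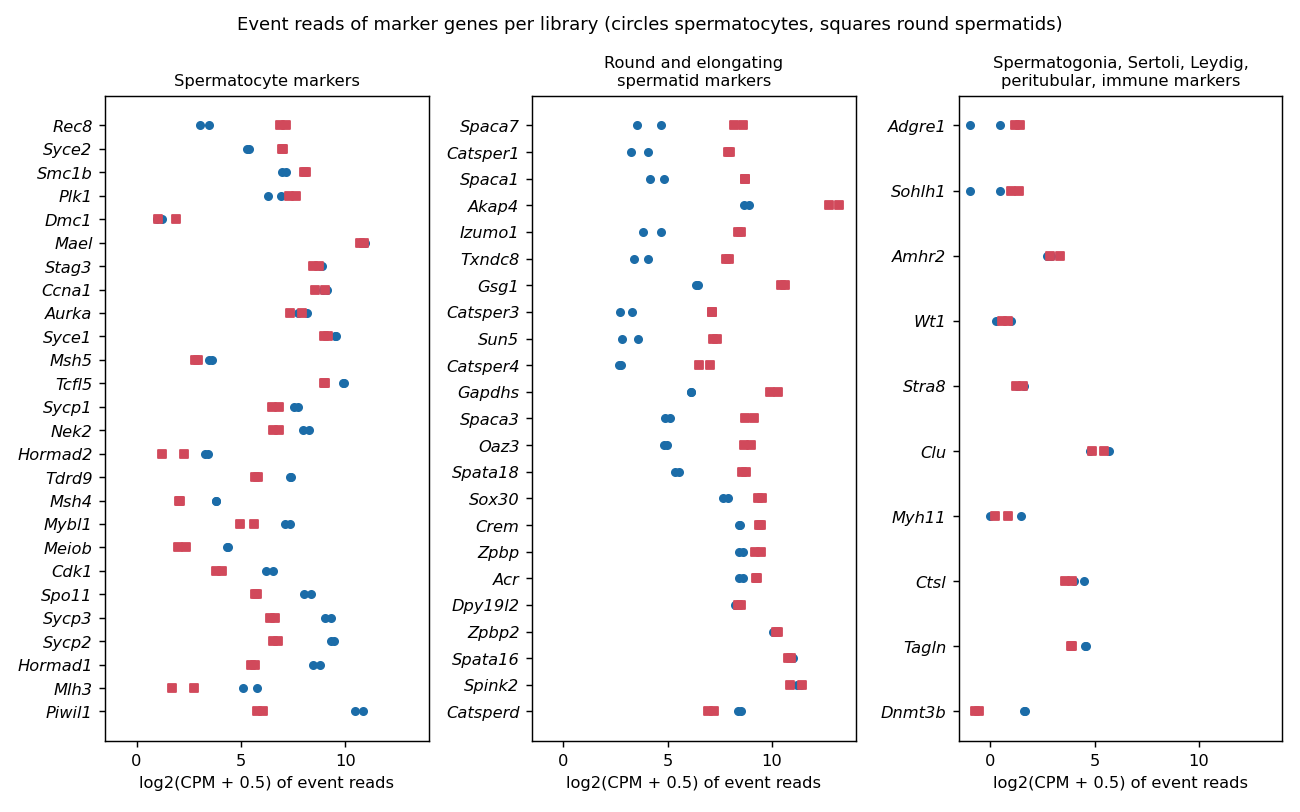
Event reads of each measured marker gene are plotted as log2(CPM + 0.5), with circles for the 2 spermatocyte and squares for the 2 round spermatid libraries, genes ordered by their difference. Most spermatocyte markers lie to the left in round spermatids, most spermatid markers lie to the right, and markers of other cells stay low in all libraries.

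The largest rises in reads among named protein genes were in Pde1a, a phosphodiesterase of cyclic nucleotides (5.38 and 9.47 against 237 and 195 CPM), Sly, a Y-linked gene of spermatids (3.59 and 10.1 against 118 and 225 CPM), and Pdilt, a chaperone of the testis (14.7 and 26.6 against 506 and 480 CPM). The largest falls were in Tdrd5, of the piRNA pathway (308 and 281 against 10.6 and 7.53 CPM), and Bcl2l12 (374 and 329 against 11.2 and 11.04 CPM), besides Piwil1. The other genes among the 8 largest in each direction carry predicted or clone names. Each of these genes differed by more than 4 log2 units.

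Reads of a gene and retention of its introns were set side by side. Of 290 genes with an intron called lower, 39 had more reads and 175 fewer in round spermatids, with a median log2 difference of -0.63. Of 1327 genes with an intron that was not called, 264 had more and 776 fewer, with a median of -0.78. Genes with an exon called higher had more reads in 181 of 391 cases and fewer in 114, with a median of 0.29, against 2017 more and 3230 fewer of 7061 genes with an exon that was not called. Across 2228 introns, which share genes and libraries, the change in log2 odds of retention had a Spearman rho of 0.0553 with the change in the reads of the gene. The most covered event of a gene can be the called event itself, as in Adcy3 and Eef1d. More use of the longer form then adds reads, so reads and inclusion are not independent in these comparisons.

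The 4 libraries of the first sample groups are taken as Larp7 knock-out and took no part in the calls. They gave the same stage difference for most called events. Of the 1500 called events 1391 differed in the same direction there and 107 in the opposite, and 1137 were also called there in the same direction. The count of 1137 is not independent of the first calls. It comes from a fit of all 8 libraries, whose spread includes the libraries that gave the 1500 calls. Of the 367 introns called lower 361 were lower in those libraries too, and of the 34 called higher 32 were higher. Mean retention over the same introns was 28.1% and 27.6% in spermatocytes and 24.6% and 24.7% in round spermatids there. The stage difference itself differed between sample groups in 0 events by limma in a fit of all 8 libraries, with 2608 at an unadjusted p under 0.05.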

How the data were processed

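Stage tables of alternative splicing events were used, 1 for each of 5 event types in spermatocytes and in round spermatids. STAR and mm10 are named in the submitters' processing notes, and no version was found there. Per the file headers, each row gives inclusion and skipping reads of 2 sample groups, both form lengths, and the authors' inclusion levels as fractions, p-values and FDR, which were not used. Each deposited count cell joins 2 libraries with a comma.

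Events were matched between stages by type, chromosome, strand and all exon coordinates. The spermatocyte tables held 66122 events and those of round spermatids 52897, so 54.7% and 68.4% were matched (retained introns 91.0% and 93.9%, mutually exclusive pairs 37.4% and 49.9%). Event reads over the tables came to 64657689 and 64421409 in the spermatocyte libraries and 58487298 and 56164530 in the round spermatid libraries, and over matched events to between 37759739 and 39016900. Overlapping events share reads, so library totals are unknown. Over tested events the median absolute difference was 1.14 and 1.15 percentage points between libraries of a stage and 1.57 and 1.6 between stages.

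Events with at least 10 reads per library on average and a read of each form were tested. Inclusion was divided by form length and put on a log2 odds scale with 0.5 scaled reads added. Limma 3.58.1 (R 4.3.3) fitted it using inverse counting variances as weights, with the moderated spread following the mean reads of the rarer form and Benjamini-Hochberg adjustment over all 31433 events. Levels printed are percent of inclusion computed from the deposited reads. A quasi-binomial test was the other tool. For a gene, event reads are those of its most covered matched event as CPM of their sum, tested by limma on log2(CPM + 0.5). Reads of both forms were added without dividing by form length. The scripts were tested on simulated data, in which limma called a small part of the events given a change. Python 3.11.15 and matplotlib 3.10.9 drew the plots.

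Named events are called events with at least 10 points, no overlap and 20 reads in every library: the 10 exons, 6 introns and 4 of each other type with the largest difference, and up to 4 genes per list. Symbols of predicted genes (Gm with digits, Rik) were left out. Events of 2 genes that met the rule are not reported here. Genes named for reads are the 8 with the largest called difference in each direction, the markers of each list with the most reads, and genes of leading events. The comparison, its members and the lists were chosen with earlier results of these data known. The design text calls the libraries biological replicates but ties none to an animal, so p-values measure the spread between these libraries. No genome was used, so exon and intron sequences are not shown.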

Additional observations from a re-analysis of the deposited data

How the results depend on the processing

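No paired analysis was possible because the columns carry no replicate numbers. The count of called events (1500) was 894 with the trend on total reads, 2729 with unscaled added reads, 975 by the quasi-binomial test, 271 without count weights, 2256 with robust eBayes and 702 without a filter on reads. Introns lower in round spermatids (367) were 95 without weights and 237 without a filter. Introns higher (34) were 57 unscaled, 21 by the quasi-binomial test, 8 without weights and 20 without a filter. Exons higher (505) were 254 with the trend on total reads, 954 unscaled, 306 by the quasi-binomial test, 61 without weights, 759 with robust eBayes and 205 without a filter. Exons lower (337) were 145, 775, 187, 56, 576 and 122 in the same order, and 524 in the fit of 8 libraries. Pairs and alternative sites (257) were 457 unscaled, 169 by the quasi-binomial test, 51 without weights, 403 robust and 118 without a filter. Leaving out each library gave 0 calls of every kind by limma on 1 residual degree of freedom, with 3805 to 4940 events at an unadjusted p under 0.05 and 0 calls by the quasi-binomial test. In the fit of all 8 libraries, an alternative added after seeing the data in which the lone library is assumed to vary like the others, calls came to 982 to 1124 without a spermatocyte library and 865 to 903 without a round spermatid library. In the same order, introns lower were 294 to 317 and 213 to 230, introns higher 24 to 30 and 24 to 25, exons higher 341 to 368 and 226 to 274, exons lower 158 to 212 and 218 to 242, and pairs and sites 165 to 197 and 156 to 160. Without the first round spermatid library the split of exons turned, with 226 higher and 242 lower. Introns lower outnumbered introns higher in each of these settings but those with 0 calls. The named events kept their direction under all settings in which they could be tested; 36 of 65 lost the call without weights, 18 without a filter and 13 by the quasi-binomial test, and all 65 when a library was left out of the 4. Medians in place of means gave a stage difference of -4.13 points for introns, 0.725 for 3 prime sites, -1.87 for 5 prime sites and -0.599 for pairs, and at least 20 reads gave -3.92 for introns; without each library the mean difference for introns ran from -3.79 to -3.62. The log2 difference in reads changed sign with median ratios for Mael (0.37), Spink2 (0.25), Spata16 (0.29), Stra8 (0.31), Clu (0.35), Myh11 (0.066), Gtf2i (0.072) and Gba2 (0.0998), none of which had been called, and for Mael with reads summed over events (0.031). Without each library it ran from -0.16 to 0.062 for Mael, -0.47 to 0.12 for Spink2, -0.21 to 0.15 for Stra8, -0.51 to 0.39 for Clu, -0.94 to 0.091 for Myh11 and -0.35 to 3.08 for Ydjc, of which Ydjc had been called. Inclusion of events with few reads of the rarer form is limited by depth.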
